A study of Mus musculus with 2 samples.

Results

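Bone morphogenetic protein (BMP) signalling was described here through 9 genes, which were the ligands Bmp2, Bmp4 and Bmp7, the antagonists Grem1 and Nog, the receptor Bmpr1a and the target genes Id1, Id2 and Id3. They were chosen by symbol from the 27998 genes of 2 single-cell RNA-seq libraries of mouse skin, and all 9 were found. The level of a gene was its count of unique molecular identifiers (UMIs) divided by all UMIs of a cell class and scaled to 1000000 (CPM), in each library. Both libraries came from the dorsal skin of wild-type (WT) mice, given in the study's methods as male C57BL/6J animals, healed from a circular wound of 1.8 cm diameter and collected 2 days after the scab detached. The WT_LW library came from wounds treated with PBS on days 0, 3 and 6 after wounding, as the labels give it. For wounds of the same group name the study also describes a control oligodeoxynucleotide, so which control this library had is uncertain, and with PBS an effect of any oligodeoxynucleotide and one of TLR9 activation cannot be told apart. The TLR9agonist_LW library came from wounds treated on the same days with ODN2395, a synthetic CpG oligodeoxynucleotide that activates Toll-like receptor 9 (TLR9). The study took the centre of the wounds of several mice for each group and the labels hold 1 library per group. Pooled mice cannot be told apart in it, so no spread between animals could be estimated, and no difference between the libraries was tested. Intervals are exact 95% intervals that cover counting error only.

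BMPs are secreted ligands that bind a complex of type I and type II serine/threonine kinase receptors, which phosphorylate Smad1, Smad5 and Smad9. These enter the nucleus with Smad4 and switch on targets that include the Id genes, inhibitors of basic helix-loop-helix transcription factors. Noggin (Nog) and Gremlin 1 (Grem1) bind the ligands outside the cell and keep them from the receptors. In skin the balance between BMPs and their antagonists takes part in the formation of hair follicles, which large wounds of mice can form anew, and in the resting and growth phases of the hair cycle.

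By Ensembl identifier the members lie, on build GRCm38, on chromosome 2 (Grem1, ENSMUSG00000074934, 113746164 to 113758646; Bmp2, ENSMUSG00000027358, 133552159 to 133562885; Id1, ENSMUSG00000042745, 152736251 to 152737410; Bmp7, ENSMUSG00000008999, 172868012 to 172940321), with Bmpr1a (ENSMUSG00000021796, 34410734 to 34503341) and Bmp4 (ENSMUSG00000021835, 46383520 to 46390669) on chromosome 14. Id3 (ENSMUSG00000007872) is on chromosome 4 from 136143497 to 136145755, Nog (ENSMUSG00000048616) on chromosome 11 from 89300638 to 89302332, and Id2 (ENSMUSG00000020644) on chromosome 12 from 25093799 to 25097140. All are protein-coding genes.

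The promoters of Id2 and Id3 are shown because these targets had the most different cell classes in the results, with Id2 in immune cells and Id3 in stromal cells. Each runs from 250 bases before to 50 bases after the start of the gene (RefSeq, GRCm38.p6, 300 bases, 5′ to 3′ on the strand of the gene). These RefSeq starts differ from the ends of the gene spans given above, and both windows lie inside those spans. Capitals mark GGCGCC, a GC-rich motif that Smad1 and Smad5 are known to bind, and GTCTG or its reverse complement CAGAC, which holds the Smad box.
Id2, chr12:25096043-25096342, minus strand: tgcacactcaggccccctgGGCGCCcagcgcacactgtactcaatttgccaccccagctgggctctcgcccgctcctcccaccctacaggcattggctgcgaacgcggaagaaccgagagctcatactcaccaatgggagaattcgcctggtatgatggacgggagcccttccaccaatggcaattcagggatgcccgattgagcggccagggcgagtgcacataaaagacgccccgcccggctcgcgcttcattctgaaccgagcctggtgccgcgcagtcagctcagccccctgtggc
Id3, chr4:136143572-136143871, plus strand: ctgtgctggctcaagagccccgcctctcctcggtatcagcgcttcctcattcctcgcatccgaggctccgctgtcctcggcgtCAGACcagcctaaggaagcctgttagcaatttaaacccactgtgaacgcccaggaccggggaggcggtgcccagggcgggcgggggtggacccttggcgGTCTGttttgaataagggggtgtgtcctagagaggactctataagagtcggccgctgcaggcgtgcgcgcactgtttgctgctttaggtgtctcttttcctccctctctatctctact
The Id2 window held 1 GGCGCC and 0 GTCTG or CAGAC, and the Id3 window held 0 GGCGCC and 2 GTCTG or CAGAC. Among 32851 promoters of the same length, 11.9% held GGCGCC and 49.6% held GTCTG or CAGAC on either strand, so both motifs were common. A match describes the letters only. Promoters of Grem1, Bmp4 and Bmpr1a were also in the table and are not printed.

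After filtering and removal of likely doublets, 10448 cells of WT_LW with 86223544 UMIs and 11860 cells of TLR9agonist_LW with 111511533 UMIs were used, with median depths of 5515 and 6074 UMIs per cell. The libraries shared 47 cell barcodes. Cells were put in 7 main classes by marker genes, and for fibroblasts, keratinocytes, Schwann cells and T or NK cells every marker of the list was highest in its own class in both libraries. In blood vessel endothelial cells 9 and 8 of 10 were, in pericytes 8 of 9 and in macrophages or dendritic cells 17 and 18 of 20. The same markers set the classes, so these counts are a description and not an independent check. When cells were clustered without library correction, single clusters held 97.9% and 99.5% of blood vessel endothelial cells and 99.3% and 99.8% of pericytes of the WT_LW and TLR9agonist_LW libraries. Fibroblasts and T or NK cells lay largely in different clusters by library. The 3 clusters with the most WT_LW fibroblasts held 411, 332 and 316 of them and 37, 33 and 3 of TLR9agonist_LW, and the first 2 of TLR9agonist_LW held 1238 and 1066 of them and 47 and 34 of WT_LW. For T or NK cells the first cluster of WT_LW held 1709 and 0, and that of TLR9agonist_LW 1176 and 1 of WT_LW. The WT_LW library held more T or NK cells (3404 against 2881) and more macrophages or dendritic cells (1867 against 1123), and the TLR9agonist_LW library held more fibroblasts (2484 against 1302) and keratinocytes (1825 against 827). Because most genes of a class had a lower CPM in TLR9agonist_LW, the median log2 ratio of genes with at least 200 UMIs lay between -0.45 in keratinocytes and -0.16 in Schwann cells, and values relative to that median gene are given for the main differences below. In a list of 10 dissociation stress genes chosen after the data were seen, the heat-shock genes Hspa1a and Hspa1b had a summed level in TLR9agonist_LW of 2.33 times (macrophages or dendritic cells) to 6.87 times (blood vessel endothelial cells) that in WT_LW in the 7 main classes. The summed level of the other 8, immediate-early genes, was higher in TLR9agonist_LW in fibroblasts (log2 ratio 0.31), blood vessel endothelial cells (0.23) and Schwann cells (0.53), and lower in the other 4 classes, from -0.20 in pericytes to -0.59 in macrophages or dendritic cells. The part of these genes in the differences below was not tested.

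**Figure D1:**
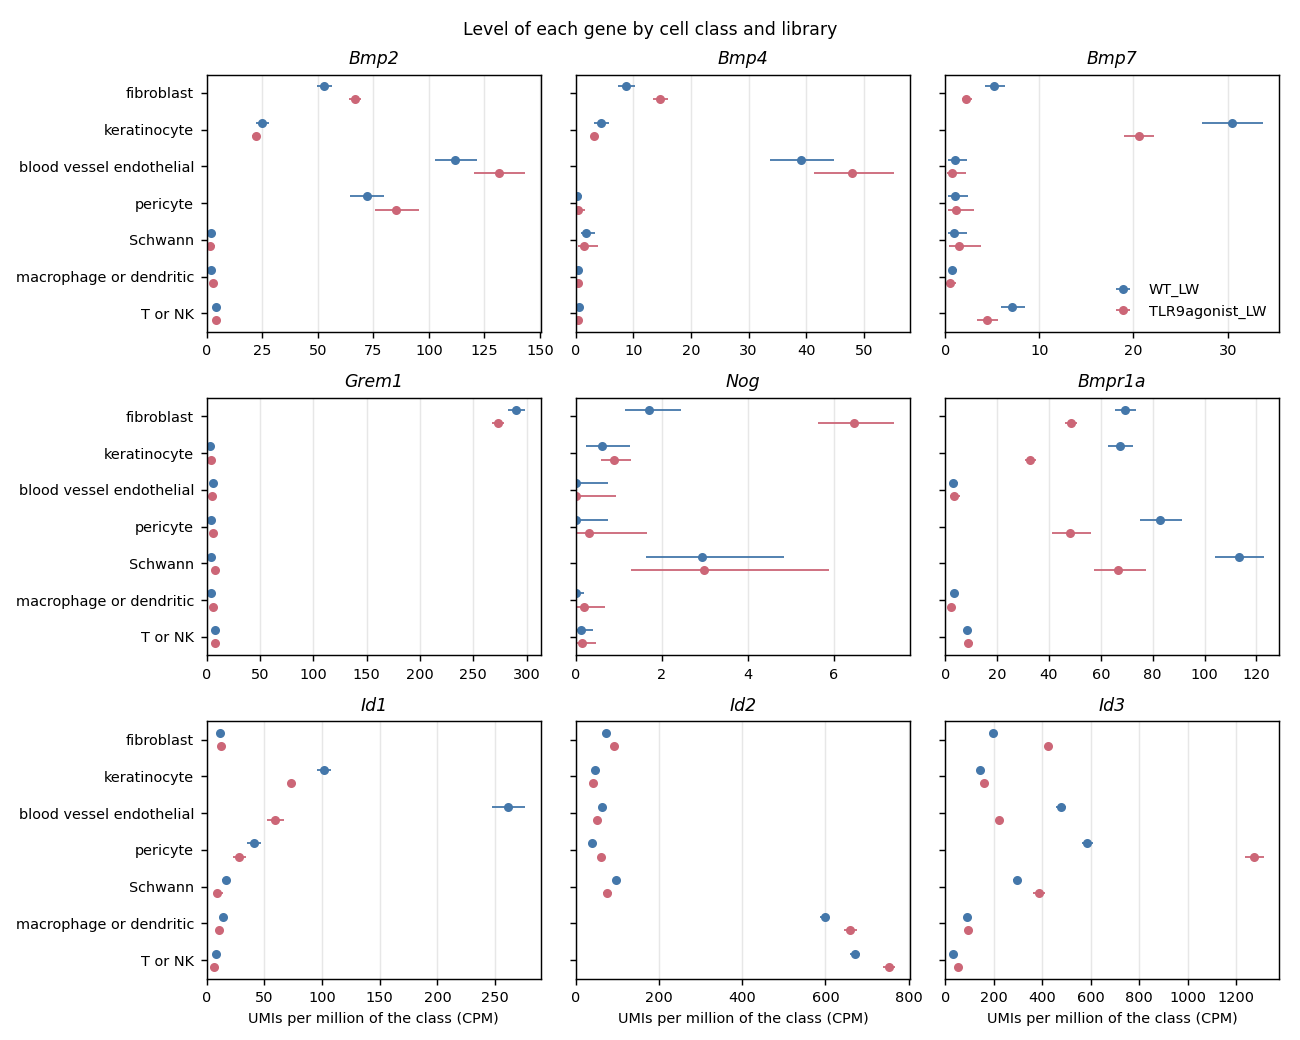
Level of each of the 9 genes (horizontal axis, CPM on a linear scale that differs between panels) in 7 cell classes of the WT_LW (blue) and TLR9agonist_LW (red) libraries, as points with exact Poisson 95% intervals. Grem1 stands alone in fibroblasts, Id2 in the 2 immune classes, and Id1 in blood vessel endothelial cells differs between the libraries, at 261 and 59.2 CPM.

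Of the ligands, Bmp2 was found mainly in the cells of vessels and in fibroblasts. Its level was 112 CPM in WT_LW and 131 in TLR9agonist_LW in blood vessel endothelial cells, 72.0 and 85.1 in pericytes, the contractile cells that wrap small vessels, and 53.0 and 66.6 in fibroblasts. In keratinocytes it was 24.9 and 22.0, and in Schwann cells, macrophages or dendritic cells, and T or NK cells between 1.49 and 4.27. The order of the 4 highest classes was the same in both libraries, and their intervals did not overlap within a library. Within keratinocytes of WT_LW, cells gated as basal held 42.7 CPM and differentiated cells 20.2, a ratio of 2.11, whereas in TLR9agonist_LW the values were 23.6 and 18.9, a ratio of 1.25.

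Bmp4 had its highest level in blood vessel endothelial cells, at 39.0 CPM (194 UMIs) in WT_LW and 48.0 (192 UMIs) in TLR9agonist_LW. In fibroblasts it was 8.72 CPM (149 UMIs) and 14.7 (486 UMIs), a log2 ratio of 0.75 (0.48 to 1.02) for TLR9agonist_LW over WT_LW. It was past 2-fold with cells thinned to 1500 UMIs (1.52), with each cell weighted equally (1.25) and relative to the median gene (1.04). The fibroblast share of all Bmp4 UMIs was 34.7% in WT_LW and 60.2% in TLR9agonist_LW. Pericytes, which lie next to the endothelium, had 1 UMI of Bmp4 in each library.

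Bmp7 was highest in keratinocytes, which held 55.3% of its UMIs in WT_LW and 76.1% in TLR9agonist_LW. Its keratinocyte level was 30.4 CPM and 20.6 CPM, a log2 ratio of -0.56 (-0.76 to -0.37), close to that of the median gene (-0.11 relative to it). Among keratinocytes, those gated as upper hair follicle cells had 74.5 CPM (52 UMIs) in WT_LW and 54.6 (40 UMIs) in TLR9agonist_LW. In fibroblasts it was 5.21 CPM (89 UMIs) and 2.23 (74 UMIs), a log2 ratio of -1.22 (-1.69 to -0.76), which was under 2-fold in 6 of 8 alternatives, at -0.81 with Leiden clusters and -0.92 without the 2 clusters of cells with the fewest UMIs. Fibroblasts gated as dermal papilla (198 and 441 cells) had 41 UMIs of Bmp7 against 8 (13.8 and 1.19 CPM). Those gated as upper wound fibroblasts had 18 against 47, for a log2 ratio of -0.24 (-1.05 to 0.63). The 8 markers of the dermal papilla gate summed to 1640 CPM against 1047 in other fibroblasts of WT_LW. In TLR9agonist_LW they summed to 1401 against 830, and 6 of the 8 were higher than in other fibroblasts. This gate thus separated its markers less than the upper and deep gates did. T or NK cells held 7.08 CPM of Bmp7 (126 UMIs) and 4.40 (67 UMIs), against 0.731 and 0.554 in macrophages or dendritic cells. Those gated as regulatory T cells held 13.6 (38 UMIs) and 12.4 (18 UMIs). Median depths were 4301 and 4670 UMIs in T or NK cells and 9465 and 8781 in macrophages or dendritic cells.

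**Figure D2:**
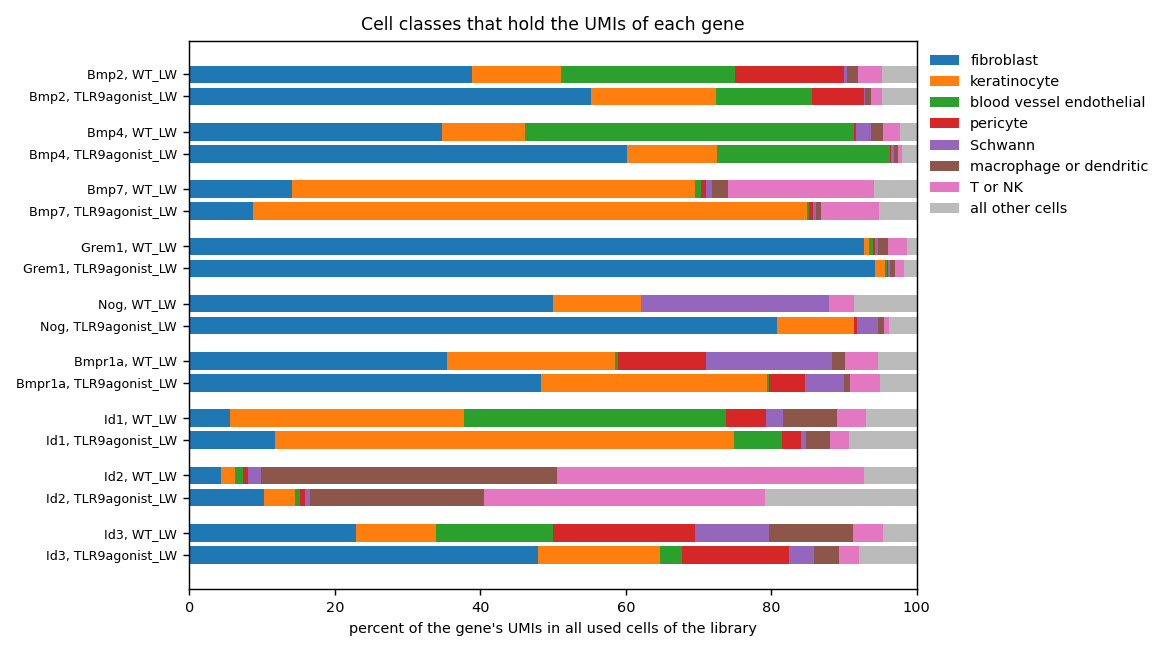
Share of the UMIs of each gene (horizontal axis, percent of the gene's UMIs in all used cells) held by each cell class (colours) in each library. Fibroblasts held 92.8% and 94.2% of Grem1 UMIs, and the part of Id1 in blood vessel endothelial cells was 36.0% in WT_LW and 6.54% in TLR9agonist_LW. Shares also move with the number of cells and UMIs of a class.

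The antagonist Grem1 was a fibroblast gene in both libraries, at 290 CPM (4964 UMIs) in WT_LW and 273 (9060 UMIs) in TLR9agonist_LW. In the other 6 main classes it was between 3.24 and 7.93 CPM, and whether this was expression or background was not tested. Among keratinocytes, those gated as upper hair follicle cells had 10.0 CPM (7 UMIs) in WT_LW and 32.8 (24 UMIs) in TLR9agonist_LW. Cells with fewer than 1500 UMIs were left out of all thinned values. This kept 1031 of 1302 fibroblasts of WT_LW and 2415 of 2484 of TLR9agonist_LW. Of these, thinned to 1500 UMIs, 20.8% in WT_LW (18.3 to 23.4) and 24.0% in TLR9agonist_LW (22.3 to 25.7) had a Grem1 UMI. Without thinning, 40.8% and 52.8% of all gated fibroblasts had a Grem1 UMI. At the same thinned depth 1.18% and 1.12% of T or NK cells had 1, where the median depths were 11083.5 and 12732.5 UMIs for fibroblasts, and 4301 and 4670 for T or NK cells. The log2 ratio over all fibroblasts was -0.09 (-0.14 to -0.04) and changed sign with the weighting, at 0.49 with equal weight per cell and 0.21 relative to the median gene, so no direction is given.

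Within fibroblasts Grem1 differed between subsets gated by markers of upper and of deep wound fibroblasts, whose position was not measured here. Grem1 was not a gate marker, but in earlier clusters of these cells it was a leading gene together with markers of the upper gate, so its higher level there is a description and not an independent result. Cells gated as upper wound fibroblasts held 484 CPM in WT_LW and 439 in TLR9agonist_LW, and those gated as deep wound fibroblasts 244 and 132. The upper to deep ratio was thus 1.99 (log2 0.99, 0.90 to 1.09) in WT_LW and 3.34 (log2 1.74, 1.64 to 1.83) in TLR9agonist_LW. The 7 markers of the deep gate summed to 3307 CPM in deep cells of WT_LW and 2340 in those of TLR9agonist_LW, and the part of this in the values was not tested. Deep cells of TLR9agonist_LW were lower than those of WT_LW by a log2 ratio of -0.89 (-1.002 to -0.78), or -1.56 with a stricter subset gate.

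Nog, the antagonist Noggin, was sparse. Fibroblasts of WT_LW had 29 UMIs (1.70 CPM) and TLR9agonist_LW 215 (6.48 CPM), with a log2 ratio of 1.93 (1.37 to 2.55), 2.23 relative to the median gene and 1.23 with cells thinned to 1500 UMIs, and over all cells 58 and 266 UMIs. Fibroblasts thus held 29 of 58 UMIs in WT_LW and 80.8% of those in TLR9agonist_LW, and Schwann cells had 15 and 8 UMIs (2.94 and 2.99 CPM). With cells thinned to 1500 UMIs, 0.388% of WT_LW fibroblasts (0.106 to 0.990) and 0.870% of TLR9agonist_LW fibroblasts (0.539 to 1.33) had a Nog UMI. These intervals overlapped. Without thinning 1.84% and 6.36% of fibroblasts had a Nog UMI. Blood vessel endothelial cells had 0 Nog UMIs in both libraries.

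**Figure D3:**
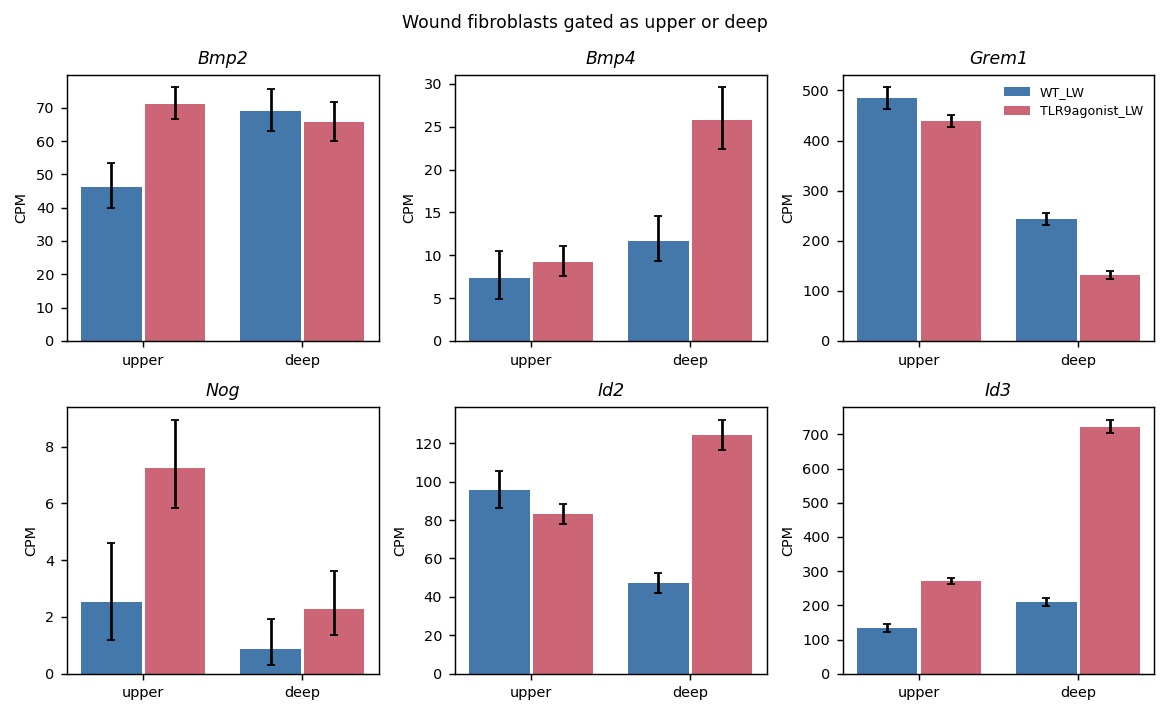
Levels (vertical axis, CPM, linear and starting at 0) of 6 genes in fibroblasts gated as upper or deep wound fibroblasts in WT_LW (blue) and TLR9agonist_LW (red), with exact Poisson 95% intervals. Grem1 was higher in upper cells in both libraries, and Id3 was higher in deep cells, at 723 CPM against 271 in TLR9agonist_LW.

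Bmpr1a, a type I receptor for Bmp2 and Bmp4, was found in the epithelial, glial and stromal classes and close to absent in the others. Its level in WT_LW was 113 CPM in Schwann cells, 82.8 in pericytes, 69.4 in fibroblasts and 67.4 in keratinocytes, and in TLR9agonist_LW 66.8, 48.2, 48.4 and 32.9. The intervals of fibroblasts and keratinocytes overlapped in WT_LW, and those of pericytes and fibroblasts in TLR9agonist_LW. Blood vessel endothelial cells, in which Bmp2 and Bmp4 were highest, had 3.02 and 3.25 CPM (15 and 13 UMIs). Between the libraries the level was lower in TLR9agonist_LW in Schwann cells, pericytes, fibroblasts and keratinocytes. The log2 ratio ran from -0.52 (-0.63 to -0.41) in fibroblasts to -1.03 (-1.17 to -0.90) in keratinocytes. Relative to the median gene it was -0.22 in fibroblasts, -0.43 in pericytes, -0.58 in keratinocytes and -0.60 in Schwann cells.

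Of the targets, Id1 had its highest level in WT_LW in endothelial cells. Its level in blood vessel endothelial cells was 261 CPM (1300 UMIs in 625 cells) in WT_LW and 59.2 (237 UMIs in 385 cells) in TLR9agonist_LW, which is 4.41 times higher in WT_LW (log2 ratio -2.14, -2.35 to -1.94, and -1.79 relative to the median gene). Beside this, Hspa1a and Hspa1b summed to 1326 CPM in this class of WT_LW and 9114 in TLR9agonist_LW, and their part was not tested. At equal depth 23.7% of cells (20.4 to 27.3) had an Id1 UMI in WT_LW and 8.88% (6.23 to 12.2) in TLR9agonist_LW, and 52.3% and 27.8% did unthinned. Lymphatic endothelial cells, of which there were 53 and 51, had 285 CPM and 205 CPM. Keratinocytes had 102 CPM and 73.1, and held 32.2% and 63.2% of all Id1 UMIs. All other main classes were at or under 40.7 CPM.

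Id3 was widespread in stromal cells, with its highest level in pericytes at 586 CPM (2864 UMIs) in WT_LW against 1274 (4310 UMIs) in TLR9agonist_LW, for a log2 ratio of 1.12 (1.05 to 1.19), and 1.47 relative to the median gene. Fibroblasts had 197 CPM (3375 UMIs) and 425 (14106 UMIs), for a log2 ratio of 1.11 (1.05 to 1.16), and 1.40 relative to the median gene. Blood vessel endothelial cells went the other way, from 478 CPM (2374 UMIs) in WT_LW to 222 (888 UMIs) in TLR9agonist_LW (log2 ratio -1.11, -1.22 to -0.99, and -0.75 relative to the median gene, which is under 2-fold). In pericytes Hspa1a and Hspa1b summed to 3024 and 12111 CPM and in fibroblasts to 1850 and 5938, and their part was not tested. Schwann cells had 296 and 386 CPM of Id3, keratinocytes 142 and 158, and macrophages or dendritic cells 89.0 and 95.05. The 53 and 51 lymphatic endothelial cells had 450 CPM (177 UMIs) and 507 (319 UMIs), a log2 ratio of 0.17 (-0.10 to 0.45). At a depth of 1500 UMIs the share of cells with an Id3 UMI was 39.4% and 59.4% in pericytes, 18.8% and 31.3% in fibroblasts, and 42.1% and 26.9% in blood vessel endothelial cells. T or NK cells, in which Id3 was lowest among the 7 main classes, had 33.7 and 52.8 CPM and thinned shares of 5.005% and 7.22%, so this low level was also higher in TLR9agonist_LW.

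**Figure D4:**
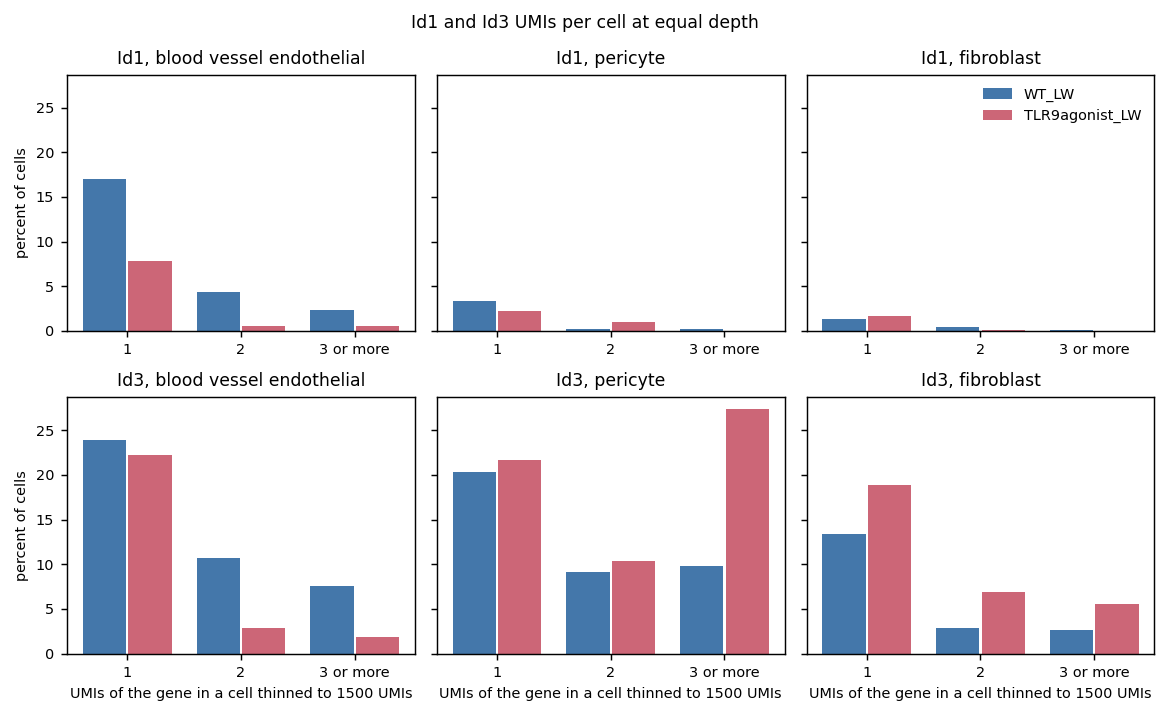
Percent of cells (vertical axis) with 1, 2 or 3 or more UMIs of Id1 (top) or Id3 (bottom) after each cell was thinned to 1500 UMIs, in 3 cell classes of WT_LW (blue) and TLR9agonist_LW (red). Cells with 3 or more Id3 UMIs were 9.84% of pericytes in WT_LW and 27.3% in TLR9agonist_LW, and 7.51% and 1.83% of blood vessel endothelial cells.

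The difference of Id3 in fibroblasts varied between the gated subsets. Upper cells had 134 CPM in WT_LW against 271 in TLR9agonist_LW (log2 ratio 1.02), and deep cells 210 against 723 (log2 ratio 1.79). Cells gated as dermal papilla had 262 against 344 (log2 ratio 0.39, 0.27 to 0.51), with the limit of this gate given above for Bmp7. Id3 was higher in deep than in upper cells in both libraries, by a factor of 1.56 in WT_LW and 2.67 in TLR9agonist_LW, opposite to Grem1. Among cells of WT_LW thinned to 1500 UMIs, 16.4% of fibroblasts with a Grem1 UMI (11.7 to 22.0) and 19.5% of those without (16.8 to 22.4) had an Id3 UMI, and in TLR9agonist_LW 26.9% (23.4 to 30.8) and 32.7% (30.6 to 34.9). The intervals overlapped in both libraries. In blood vessel endothelial cells of WT_LW 57.7% of cells with an Id1 UMI (49.2 to 66.0) and 37.2% of those without (32.7 to 41.8) had an Id3 UMI, and in TLR9agonist_LW 41.2% (24.6 to 59.3) and 25.5% (21.01 to 30.4), where the intervals overlapped.

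Id2, known for its role in innate lymphoid cells and dendritic cells, was highest in immune cells. It had 670 and 753 CPM in T or NK cells and 598 and 659 in macrophages or dendritic cells, with log2 ratios of 0.17 (0.13 to 0.21) and 0.14 (0.10 to 0.18). Non-immune main classes had 39.9 to 96.9 CPM. Among subsets its level was highest in cells gated as migratory dendritic cells, at 1412 and 1122 CPM. The next subset was Mmp12-high macrophages in WT_LW (1276, and 804 in TLR9agonist_LW) and gamma delta T17-like cells in TLR9agonist_LW (973, and 888 in WT_LW), and type 1 dendritic cells had 878 and 692. Mast cells had 514 and 1158 CPM, from 164 and 400 cells. In deep wound fibroblasts it was 47.0 and 124 CPM, a log2 ratio of 1.40 (1.22 to 1.59), whereas in upper cells it was 95.6 and 82.9. Over all fibroblasts the direction of the Id2 difference depended on the weighting, at 0.35 with UMIs summed and -0.81 with equal weight per cell.

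**Figure D5:**
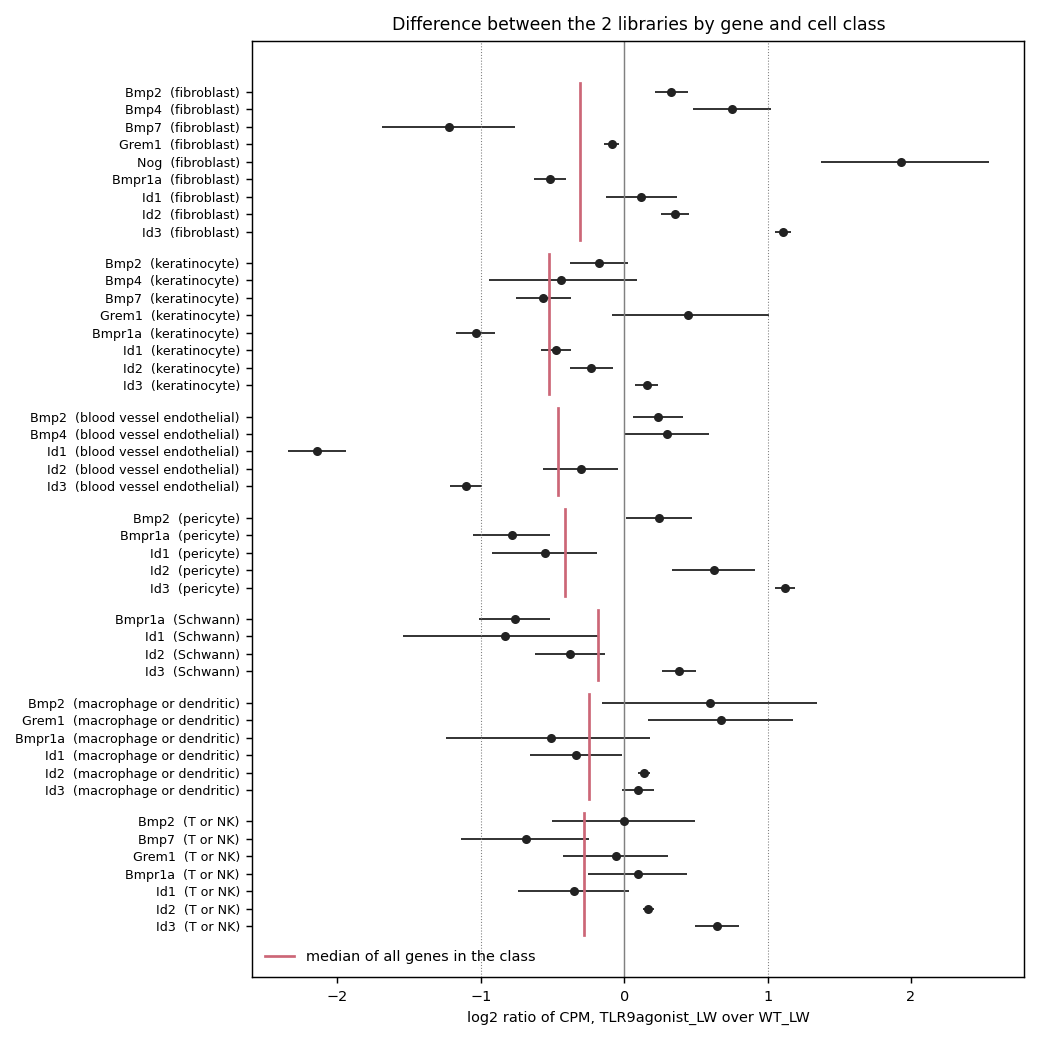
Log2 ratio of CPM, TLR9agonist_LW over WT_LW (horizontal axis), for each gene with at least 50 UMIs in a class, with exact 95% intervals, dotted lines at a 2-fold difference and a red line at the median of all genes of the class. Of the Id genes, Id3 lay past 2-fold on the right in fibroblasts and pericytes, and Id1 and Id3 lay past it on the left in blood vessel endothelial cells.

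Among genes with at least 50 UMIs in a class, 2 of 9 members in fibroblasts were at least 2-fold higher in TLR9agonist_LW (Nog and Id3). The background was 3.55% of all 12721 such genes, and Bmp4 also passed in 3 of 8 alternatives. In the same class 1 member was at least 2-fold lower (Bmp7, under 2-fold in 6 of 8 alternatives), against 9.13%. In pericytes 1 of 5 was higher (Id3), against 3.20%, and 0 were lower, against 11.4%. In blood vessel endothelial cells 0 of 5 were higher, against 3.31%, and 2 were lower (Id1 and Id3), against 16.0%. Id3 was under 2-fold there in 2 of 8 alternatives. In keratinocytes 0 of 8 were higher, against 2.49%, and 1 was lower (Bmpr1a, just past 2-fold, and under it in 4 of 8 alternatives), against 20.5%. No member passed in either direction among 4 in Schwann cells (background 6.18%), 6 in macrophages or dendritic cells (7.35%) or 7 in T or NK cells (14.1%). Over all cells together 1 of 9 was higher (Nog), against 3.78%. The median log2 ratio of the members was 0.33 in fibroblasts, where that of all genes counted was -0.31, and -0.30 in blood vessel endothelial cells, where it was -0.46. In Schwann cells it lay below that of all genes, at -0.57 against -0.18 over 4 members.

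The other genes of the pathway were a list of 52. Of the 35 with at least 50 UMIs in fibroblasts, 1 was at least 2-fold higher in TLR9agonist_LW and 2 were lower. Over all genes with at least 50 UMIs there, the shares were 3.55% and 9.13%. In keratinocytes 1 and 3 of 27 passed, against 2.49% and 20.5% of all such genes. In blood vessel endothelial cells 1 and 2 of 23 did, against 3.31% and 16.0%. In pericytes 1 and 1 of 28 did, against 3.20% and 11.4%. Smad7, an inhibitory Smad that TGF-beta and BMP signals induce, was the 1 higher gene in fibroblasts (67.0 and 152 CPM), in pericytes (154 and 359) and in blood vessel endothelial cells (112 and 250). Smad7 was higher in TLR9agonist_LW both where Id3 was higher and in the blood vessel endothelial class, where Id1 and Id3 were lower. A link of Smad7 with the Id genes or with the heat-shock genes was not tested.

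Among the other antagonists, Fst (follistatin, an inhibitor of activins) had 78.7 CPM in WT_LW keratinocytes against 255 in TLR9agonist_LW. Sostdc1, a BMP and Wnt antagonist of hair follicles, had 75.3 and 18.5 in the same class, and was highest in Schwann cells at 373 and 214. Chrdl1, a chordin-like BMP antagonist, had 12.3 and 1.57 in fibroblasts. Fstl1 was abundant in fibroblasts at 3238 and 2473 CPM, and in blood vessel endothelial cells it had 464 and 217. Smoc2 over all cells had 36.5 and 94.8 CPM.

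Of the receptors, Eng, an endothelial co-receptor, had 521 and 446 CPM in blood vessel endothelial cells and Bmpr2, the type II receptor, 340 and 288. Rgma, a co-receptor of BMPs, was lower in keratinocytes of TLR9agonist_LW, at 20.6 and 5.78 CPM, and Acvr2b over all cells had 2.37 and 1.17. Smad1, which transmits the BMP signal, had 350 and 235 CPM in blood vessel endothelial cells. Of the targets, Id4 was highest in pericytes (253 and 213 CPM) and lower in keratinocytes of TLR9agonist_LW (12.5 and 3.26), and Hes1 had 235 and 264 in pericytes. Of the ligands, Bmp5 had 27.8 and 30.4 CPM in pericytes, Bmp3 over all cells 1.65 and 3.42, and Bmp6 had 10 and 8 UMIs in all cells.

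Across 18 profiles, which were 9 cell classes in 2 libraries, genes among the most like each member in log2(CPM + 1), among 11999 genes with at least 500 UMIs, were found by Pearson correlation. The profiles share libraries and depth, so the values are descriptions. For Grem1 these were Lrrc15 (r = 0.98), Lum (0.98), itself a marker of the fibroblast gate, and C1qtnf3 (0.98). For Id1 they were Galnt18 (0.93), Efna1 (0.93) and Prrg2 (0.92), for Id2 Runx3 (0.95), Samd11 (0.95) and Gpr183 (0.94), and for Id3 Lpp (0.92) and Laptm4a (0.92). For Bmp2 they were Inhbb (0.88), Hspb8 (0.87) and Ankrd29 (0.87), for Bmp4 Hoxb9 (0.93) and Fam101b (0.88), for Bmp7 Map7 (0.90), Nudt5 (0.86) and Uchl3 (0.86), and for Bmpr1a Pmm1 (0.96), Ninl (0.94) and Kctd15 (0.94). Nog had too few UMIs to be compared.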

How the data were processed

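The authors deposited filtered matrices of UMI counts, 1 per library, written by Cell Ranger 4.0.0 according to the matrix header. The submitters' processing notes name fastp, Cell Ranger, Seurat and build mm9, with no role given. The deposited counts are raw and not normalized. Of 12800 and 13751 barcodes, cells with at least 500 UMIs, 300 genes and at most 15% mitochondrial UMIs were kept. Scrublet (scanpy 1.11.5) marked 0 cells by its automatic threshold in both libraries, so the highest scores at an expected rate of 0.8% per 1000 cells were removed (995 and 1346 cells). Classes came from the mean of the 4 highest scaled markers (at least 0.35, leading other classes by 0.1), and 2415 cells lay within 0.05 of that lead. The 746 and 1673 cells with mixed markers and the 139 and 66 with a score under 0.35 were left out of the classes. They were kept in the values over all cells and in the totals behind the shares of UMIs. UMIs were summed per class. Of the 27998 gene identifiers, 27645 were in the GRCm38 annotation used for positions. With 1 library per group no test was made. Alternatives were another cell filter, doublets kept, Leiden clusters, stricter gates, equal weight per cell, median centring and thinning. Values thinned to 1500 UMIs used only cells with at least that depth, 9425 in WT_LW and 10876 in TLR9agonist_LW. The members and the gene and marker lists were chosen with earlier results of these data known, and named pathway genes were those with at least 200 UMIs and a 2-fold difference in a class, the 2 highest of each role, and Bmp6. Of the genes most like Bmp4 and Id3, 1 each is not reported here. The interval and ratio code was tested on simulated data. Shares of cells have exact Clopper-Pearson intervals and levels exact Poisson intervals, which cover counting error only.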

Additional observations from a re-analysis of the deposited data

Results flagged for a closer look

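Id3 differed between the libraries in opposite directions by cell class, past 2-fold on both sides in the main setting. Its log2 ratio, TLR9agonist_LW over WT_LW, was 1.11 in fibroblasts, 1.12 in pericytes and -1.11 in blood vessel endothelial cells. In the endothelial cells it was under 2-fold in 2 of 8 alternatives, at -0.75 with median centring and -0.97 with equal weight per cell. With 1 library per group the difference between the classes was not tested.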

How the results depend on the processing

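With 1 library per group, no value between the libraries has a replicate check, and the depth limits Nog, Bmp7 and the small lymphatic, mast and neutrophil classes most. No paired analysis was possible because each group has 1 library and no test was made. Of 59 log2 ratios by class or subset, 44 had an interval that excludes 0. Of these, 36 kept their sign under every alternative run, with 13 of 275 alternative values of the other sign in the other 8. Ratios by class had 8 alternatives. Each ratio by subset had only 1, the stricter subset gate, so its sign was not checked with equal weight, thinning or median centring. Grem1 in fibroblasts changed sign with equal weight per cell (0.49), median centring (0.21) and thinning to 1500 UMIs (0.23), and Grem1 in upper wound fibroblasts with a stricter subset gate (0.0344). Id2 changed sign in fibroblasts with equal weight (-0.81) and thinning (-0.13), in keratinocytes with equal weight (0.19), median centring (0.22) and thinning (0.53), in blood vessel endothelial cells with median centring (0.0519) and in pericytes with a stricter gate (-0.0194). Id1 changed sign in Schwann cells with thinning (0.59) and in macrophages or dendritic cells with Leiden clusters (0.0106). The number of members past 2-fold was 0 instead of 1 in keratinocytes with median centring and with thinning, 1 instead of 2 in blood vessel endothelial cells with equal weight and with median centring but 3 with thinning, where Id2 was also lower (-1.24), and 1 instead of 0 in Schwann cells with a stricter gate, with thinning and with a minimum of 20 UMIs. In fibroblasts the count was 2 or 3 but its members changed. Bmp4 was past 2-fold there with equal weight (1.25), median centring (1.04) and thinning (1.52). Bmp7 in fibroblasts was under 2-fold with doublets kept (-0.93), Leiden clusters (-0.81), equal weight (-0.996), median centring (-0.93), thinning (-0.94) and the low-UMI clusters left out (-0.92), and Bmpr1a in keratinocytes with doublets kept (-0.99), equal weight (-0.98), median centring (-0.58) and thinning (-0.93). Grem1 in deep wound fibroblasts was -1.56 with a stricter subset gate. The cause was not tested. Leaving out the 2 clusters of low-UMI cells, an alternative chosen after seeing the data, gave none of the ratios by class among the 44 the other sign. In those clusters lay 316 fibroblasts of WT_LW and 72 of TLR9agonist_LW.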
